A study of Mus musculus with 17 samples.

Results

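T cell receptor gene segments are the pieces of the Tra, Trb, Trd and Trg loci that a developing T cell joins into its receptor genes. The 21 segment rows described here are the rows of a gene count table whose mouse symbol names a variable (V), diversity (D), joining (J) or constant (C) segment of these loci and whose counts, summed over all 17 libraries, reached 50 or more. They are 21 of 262 segment rows and of 47643 rows in all. Of the other segment rows, 152 held 0 counts in every library and 89 held some counts but fewer than 50. The rows were chosen by their summed counts, so that they are the high rows of the family is no finding. Just inside the limit were the Trav15d-2-dv6d-2 row with 58 counts and the Trbc1 row with 73, and just outside it the Trgv5 row with 42 and the Trav14-1 row with 40.

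The libraries were made from polyA RNA of Foxp3-GFP+ regulatory T cells (Tregs), sorted from CD4-enriched spleens of mice on the NOD background, which is prone to autoimmune diabetes. Tregs depend on the transcription factor Foxp3, and Nfkbid codes for IkBNS, a nuclear member of the IkB family that tunes NF-kB target genes. All mice carried the Foxp3-GFP reporter. The 6 transgenic libraries (NOD-60A.Foxp3-GFP) came from mice with an Nfkbid transgene, as individual samples. The 5 knockout libraries (NOD-Nfkbid-KO.Foxp3-GFP) and the 6 control libraries (NOD.Foxp3-GFP) each came from a pool of 2 samples per the design text, though the library names of control replicates 3 and 6 could be read as ranges of more than 2. A difference between the transgenic group and either other group cannot be told apart from a difference between unpooled and pooled libraries. The sources used here give neither the ages of the mice nor the promoter of the transgene. Every library bears the same batch date. The library numbers in the column headers nevertheless follow the groups in part. The transgenic libraries share a run of numbers with some controls, the knockout libraries have another run, and the remaining controls lie outside both. The labels do not say what these numbers stand for. A difference between transgenic and knockout libraries cannot be told apart from a difference between their runs.

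An alpha beta T cell transcribes a rearranged Trb gene, in which V, D and J segments are spliced to Trbc1 or Trbc2, and a rearranged Tra gene, in which V and J segments are spliced to Trac. Joining Tra removes the Trd segments, Trdc included, that lie within the same locus on that chromosome. Gamma delta T cells pair a Trg chain with a Trd chain instead. CD4+ Foxp3+ Tregs are alpha beta T cells, and a diverse population of them uses many V segments.

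Library totals ran from 3133388 to 4726615 counts. Levels are given in CPM, the count scaled to the library's effective size. The limit that a count of 0 allows is 3 counts, for counting error only. Scaled in the same way but to the unadjusted library total, 3 counts were worth 0.635 to 0.957. On the effective size they were, for example, 0.62 CPM in control replicate 1 and 1.03 CPM in transgenic replicate 1. The 21 rows together held 0.034 to 0.0406% of a transgenic library, 0.0421 to 0.0514% of a knockout library and 0.039 to 0.0459% of a control library. Knockout replicates 2, 3 and 5 stood apart from the rest. They had 13615, 13476 and 13802 rows above 0, against 15039 to 17379 in the other 14 libraries, and mitochondrial rows took 25.56, 25.31 and 28.16% of their counts, against 19.66 to 24.81%. Transgenic replicate 1, at 24.81%, had the highest mitochondrial share of its group. The names are those of the table. Rows named for genes that Tregs transcribe strongly can be almost empty in it, such as Cd3e with 34 counts in all libraries together and Tnfrsf18 with 1. A segment's counts may stand in a neighbour's row, so each name below is that of a row and not an established identity. In bulk RNA, fewer cells using a segment and less of its RNA per cell cannot be told apart.

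The V segments that carry the comparisons are shown by the last 60 bases of their GENCODE M21 transcripts (GRCm38), because this end encodes the start of the receptor's most variable loop, CDR3. Capitals mark the codon of the conserved cysteine, found as the last TGT that is followed by GC in the final 30 bases of the sense strand. The Trbv17 row (chromosome 6, 41163062 to 41163556, plus strand) and the Trbv2 row (chromosome 6, 41047340 to 41047995) were the highest V rows, the Trgv7 row (chromosome 13, 19178024 to 19178492) and the Trbv2 row were the ones that passed a test, and the Trav12-1 row (chromosome 14, 53538191 to 53538738) and the Trav7-3 row (chromosome 14, 53443249 to 53443839) came nearest among the others in transgenic against control.
Trbv17: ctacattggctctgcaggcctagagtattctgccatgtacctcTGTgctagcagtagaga
Trbv2: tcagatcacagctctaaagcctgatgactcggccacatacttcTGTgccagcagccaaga
Trgv7: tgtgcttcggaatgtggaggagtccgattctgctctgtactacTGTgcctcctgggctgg
Trav12-1: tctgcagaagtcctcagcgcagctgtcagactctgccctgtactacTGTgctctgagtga
Trav7-3: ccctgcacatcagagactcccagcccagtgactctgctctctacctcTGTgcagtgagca
Trbv11: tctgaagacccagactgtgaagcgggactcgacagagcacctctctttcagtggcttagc

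The letters TGTGC stand in the final 30 bases of 136 of the 178 V rows (76.4%) and of 15 of the 17 V rows of 50 or more counts (88.2%). The Trbv11 row (chromosome 6, 41107044 to 41107303), which the annotation types as a pseudogene, does not hold them, although only the Trbv17 and Trbv2 rows were higher among V rows. Reads of 67 bases can tell some rows from their copies and not others. On the sense strand, no 67-base window of Trbv17, Trbv2, Trbv11, Trgv7, Trgc4, Trdc or Trac occurs in another annotated segment. The other strand was not compared, and there Trdc overlaps Trdv5. Every window of Trav6d-6 also occurs in other segments, most often Trav6-6, and Trav4d-3 and Trav4n-3 share all theirs, down to identical last 60 bases. The share was 65.8% for Trav7-3, 24.9% for Trav12-1 and 37.1% for Trbc1, whose shared windows are in Trbc2. Yet Trav4d-3 and Trav4n-3 held whole and unequal counts, such as 18 and 4 in transgenic replicate 1. Counts that were not whole but added to whole numbers stood in Trav14d-3-dv8 and Trav7d-4, with 34.75 and 5.25 there. Their most shared segments were Trav14d-1 and Trav7-4, not each other. Window sharing thus does not show how the authors' counting divided reads, and these counts are uncertain. Whether a row's reads come from its annotated sequence was not tested.

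The segment classes held very unequal counts. The 178 V rows summed to 21485.68 counts over the 17 libraries, the 8 C rows to 3939.32, the 74 J rows to 2.0 and the 2 Trb D rows to 0. J and D segments are short, and 73 of the 74 J rows and both D rows are shorter than 1 read. Of the 21 rows, 17 were V rows and 4 were C rows. By locus, 5 rows lay in Trb with 15901 counts, 14 in Tra/Trd with 8293.93 and 2 in Trg with 562.

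Levels of different rows are set side by side per kb of exon. The Trbv17 row had a mean of 318 CPM per kb over the 17 libraries, the Trbv2 row 196 and the Trbv11 row 150. No row outside Trb reached 50. The highest of Tra/Trd was the Trav6d-6 row with 49.5 CPM per kb, then came the Trav12-1 row with 38.1, the Trav14d-3-dv8 row with 29.4 and the Trav7-5 row with 29.3. The last pair did not differ beyond their spread.

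The constant-region rows stood below the highest V rows of their locus. Each rearranged mRNA runs into a single constant region, and each of these loci has more than 1. A constant row is thus not always the partner of the V rows set beside it, as with Trdc and the alpha V rows. The Trbc1 row, 1 of the 2 Trb constant regions, had 1.61 CPM per kb and was the lowest of the 21. The Trac row, the only Tra constant region, had 3.89 and the Trgc4 row, 1 of 4 Trg constant rows, 5.13. The highest constant row was Trdc, the delta constant region, with 14.7 CPM per kb. The Trbc1 and Trac rows thus held fewer counts per kb than the leading V rows, and the labelled T cells could not be checked on them.

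**Figure D1:**
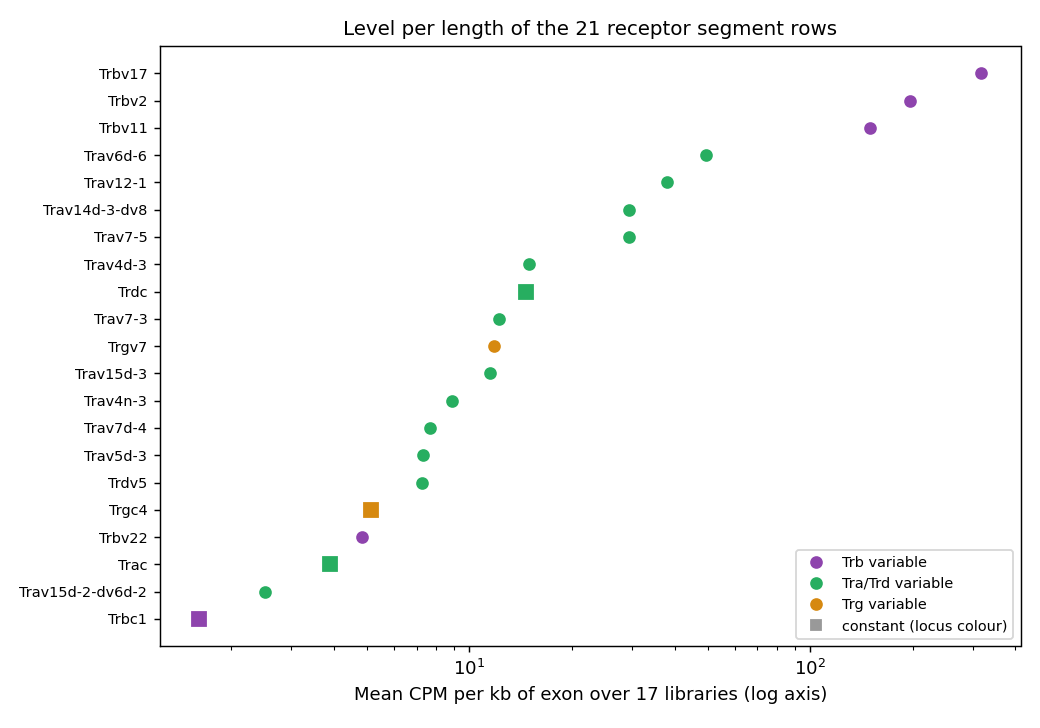
Mean level of each of the 21 rows over the 17 libraries, in CPM per kb of exon on a log axis; circles are V rows, squares C rows, and colours give the locus. The Trbv17, Trbv2 and Trbv11 rows, at 318, 196 and 150, stand above all others, and Trbc1 is lowest at 1.61.

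Few of the rows differed between genotypes. Of the 21 rows, 18 passed the filter on low counts and were tested together with all other rows, 9986 in all. The Trbv22, Trbc1 and Trav15d-2-dv6d-2 rows did not pass. In transgenic against control, 0 of the 18 rows were higher and 1, Trgv7, was lower at an adjusted p under 0.05 (edgeR's quasi-likelihood F test, the p adjusted by Benjamini-Hochberg over all rows and given below as FDR), which is 5.56% of them, against 7.4% of all rows tested (5.23% higher and 2.17% lower). In knockout against control 0 were called, against 1.89% of all rows (0.881% higher and 1.01% lower). DESeq2 and limma with voom also called 0 there, and 3 of the 18 had an unadjusted p under 0.05, as did 22.4% of all rows. In transgenic against knockout, 0 were higher and 2, Trgv7 and Trbv2, were lower, which is 11.1% of them against 10.7% of all rows (6.34% higher and 4.33% lower). In each comparison the share called was thus close to or below that of the whole table, and no comparison had a row whose groups did not overlap, against 7.1, 2.74 and 6.16% of all rows.

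The log2 fold changes of the 18 rows were below 0 for 16 rows in transgenic against control, with a median of -0.27, where 51.9% of all rows were below 0 with a median of -0.01. In transgenic against knockout 16 were also below 0, with a median of -0.54 against -0.0 for all rows. These comparisons share the transgenic libraries, so they are not separate evidence. In knockout against control 8 were below 0 and 10 above, with a median of 0.06 against -0.02.

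**Figure D2:**
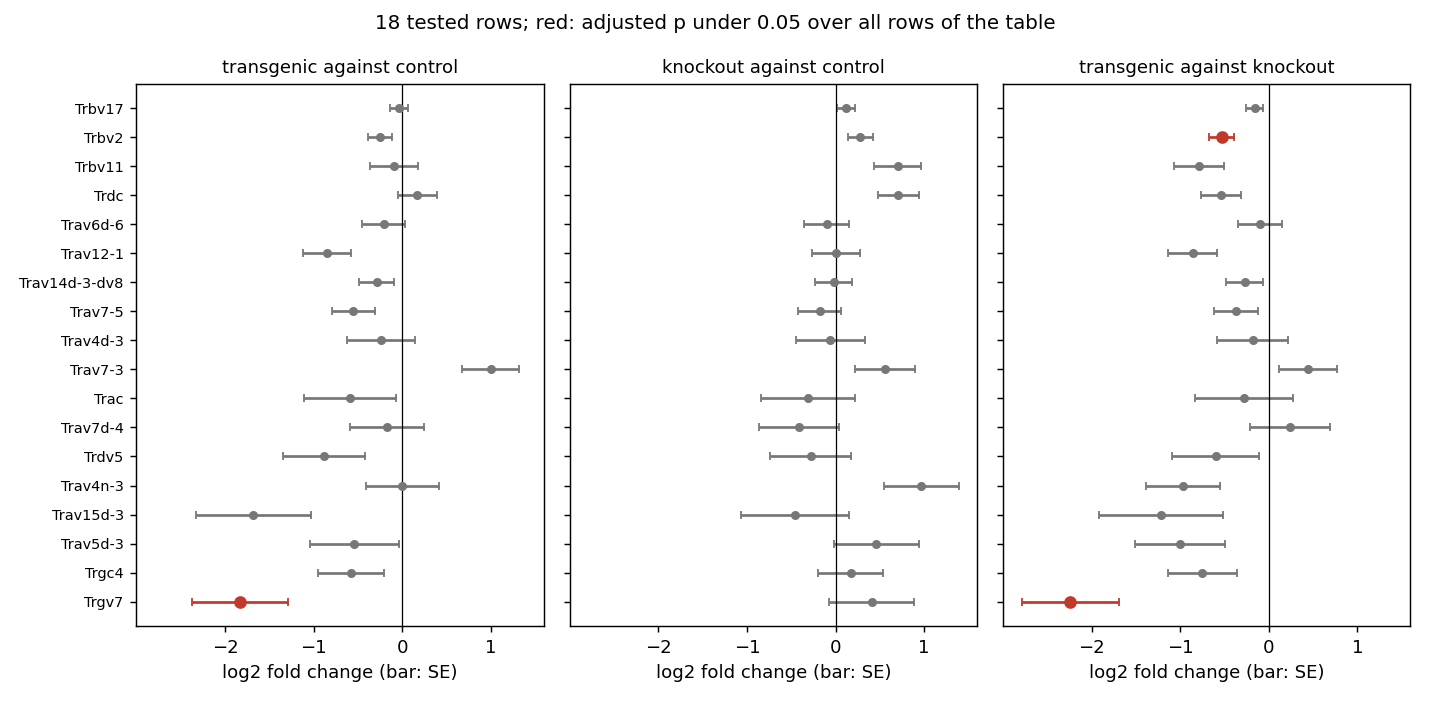
Log2 fold change of the 18 tested rows in the 3 comparisons, with bars of 1 SE; red points have an adjusted p under 0.05. Trgv7 is red at -1.83 and -2.24 in the comparisons with the transgenic group, Trbv2 at -0.53 in transgenic against knockout, and no row is red in knockout against control.

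In the Trb locus, whose chain pairs with the alpha chain, the Trbv17 row was the steadiest of all. Its level was 105 to 133 CPM in the transgenic libraries, with a median of 111. The knockout libraries had 123, 141, 125, 104 and 142 CPM, and the control libraries 100 to 124, with a median of 119. The 3 groups overlapped almost wholly, with means of 113.9 ± 10.1 (SD, n = 6), 127.0 ± 15.4 (SD, n = 5) and 117.1 ± 8.55 (SD, n = 6). The coefficient of variation over the 17 libraries was 10.1%, where counting alone would give 4.92%. The log2 fold change was -0.04 ± 0.10 (SE, FDR = 0.881) for transgenic against control and 0.12 ± 0.10 (SE, FDR = 0.495) for knockout against control.

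The Trbv2 row was lower in the transgenic than in the knockout libraries. Its level was 82.7 to 108 CPM in the transgenic libraries, with a median of 90.9. In the knockout libraries it was 97.3, 148, 154, 113 and 151 CPM. The control libraries had 82.7 to 150 CPM, with a median of 106. Knockout replicates 2, 3 and 5 and control replicate 6 were high, and knockout replicate 1 lay within the transgenic range. The level was lower than the knockout mean of 132.5 in 6 of 6 transgenic libraries. It was also lower than that mean in knockout replicates 1 and 4 and in control replicates 1 to 5. The log2 fold change for transgenic against knockout was -0.53 ± 0.14 (SE, FDR = 0.019). Without knockout replicates 2, 3 and 5, the libraries with fewer rows above 0, it was -0.19, with an adjusted p of 0.54. Leaving out knockout replicate 3, knockout replicate 5 or transgenic replicate 6 alone also ended the call, and over 27 alternatives the adjusted p ran from 0.0052 to 0.54. Against control the Trbv2 row gave -0.25 ± 0.14 (SE, FDR = 0.337) in the transgenic and 0.28 ± 0.14 (SE, FDR = 0.25) in the knockout group.

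The Trbv11 row had a level of 23.8 to 52.6 CPM in the transgenic libraries, with a median of 27.8. In knockout replicates 1 to 5 it was 32, 94.2, 49.3, 23.3 and 73.3 CPM, and the controls 26.1 to 42.5, with a median of 33.7. Knockout replicates 2, 3 and 5 were again the high ones of their group. They also had the highest mitochondrial shares and the fewest rows above 0. No comparison passed the test, with log2 fold changes of 0.7 ± 0.27 (SE, FDR = 0.15) for knockout against control and -0.79 ± 0.28 (SE, FDR = 0.072) for transgenic against knockout. Without knockout replicate 4, knockout against control was called, and without knockout replicate 1 or 4 or transgenic replicate 1 so was transgenic against knockout. The lowest adjusted p were 0.031 and 0.011. Without knockout replicates 2, 3 and 5 both signs changed, to -0.27 with an adjusted p of 0.88 and to 0.19 with an adjusted p of 0.72.

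**Figure D3:**
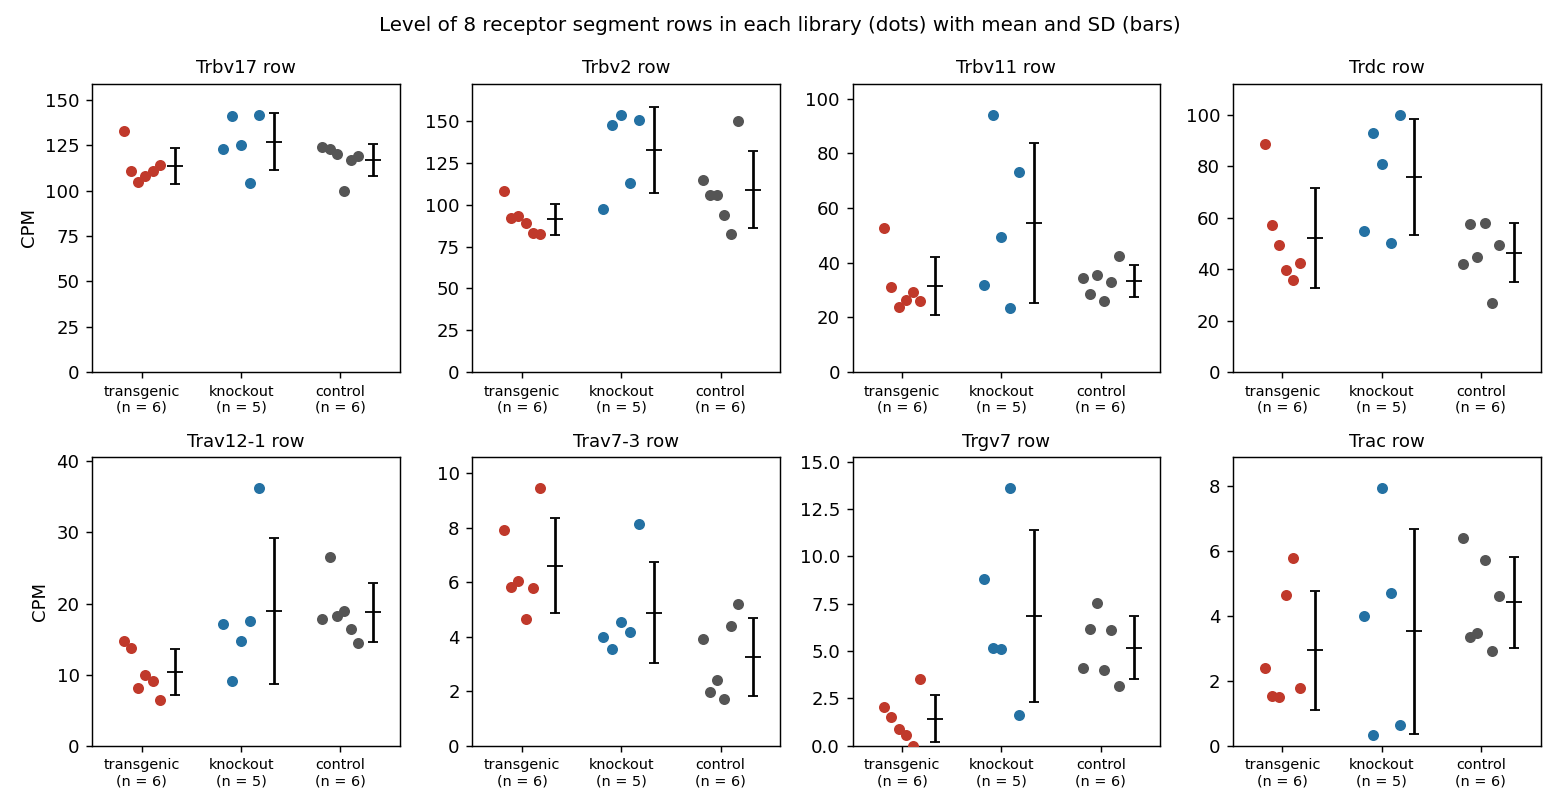
Level in CPM of 8 rows in each library (points, from replicate 1 on the left) of the transgenic, knockout and control groups, with the mean and SD beside them; the axes start at 0 and differ between panels. Trbv17 varies little, Trbv2, Trbv11 and Trdc are higher in knockout replicates 2, 3 and 5 than in the other knockout libraries, and Trgv7 lies at 0 to 3.54 CPM in the transgenic libraries.

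The other Trb rows were sparse. The Trbv22 row, with 84 counts in all, reached 5.31 CPM in transgenic replicate 6 and 3.73 in knockout replicate 1, and lay at or below 3.12 elsewhere. The Trbc1 row (chromosome 6, 41538218 to 41539881) had 0 to 1.75 CPM in the transgenic libraries and 0.538 to 2.69 in the controls. The knockout libraries had 1.07, 0.971, 0, 1.11 and 4.56. The Trbc2 row, which did not reach the limit, held 25 counts. The limit of 3 counts was 1.03, 0.923 and 0.904 CPM in transgenic replicates 1, 2 and 3. The Trbc2 row was at 0 in all 6 transgenic libraries and above 0 in all 6 controls, at 0.269 to 2.01 CPM. These groups did not overlap, but most values were under the limit of a single library, and no test was run on this row.

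Within Trb, most counts fell on few rows. Trbv17 held 44.1% of the counts of the 5 Trb rows, Trbv2 40.7% and Trbv11 14.2%. The effective number of rows, the exponential of the Shannon entropy of the shares, had medians of 2.8 in the transgenic, 2.9 in the knockout and 2.77 in the control libraries, with ranges of 2.69 to 2.88, 2.75 to 3.05 and 2.74 to 2.94 that overlap. Along the locus, the span from Trbv1 to Trbv31 holds 81 rows, of which 55 were at 0. Only 5 of its rows reached 1000 counts, and 2 of these, Prss2 with 10945 counts and 2210010C04Rik with 1688, are named for genes that are not receptor segments. The Prss2 row, named for a pancreatic trypsinogen whose gene family lies inside this locus, ended 13.1 kb upstream of Trbc1.

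**Figure D4:**
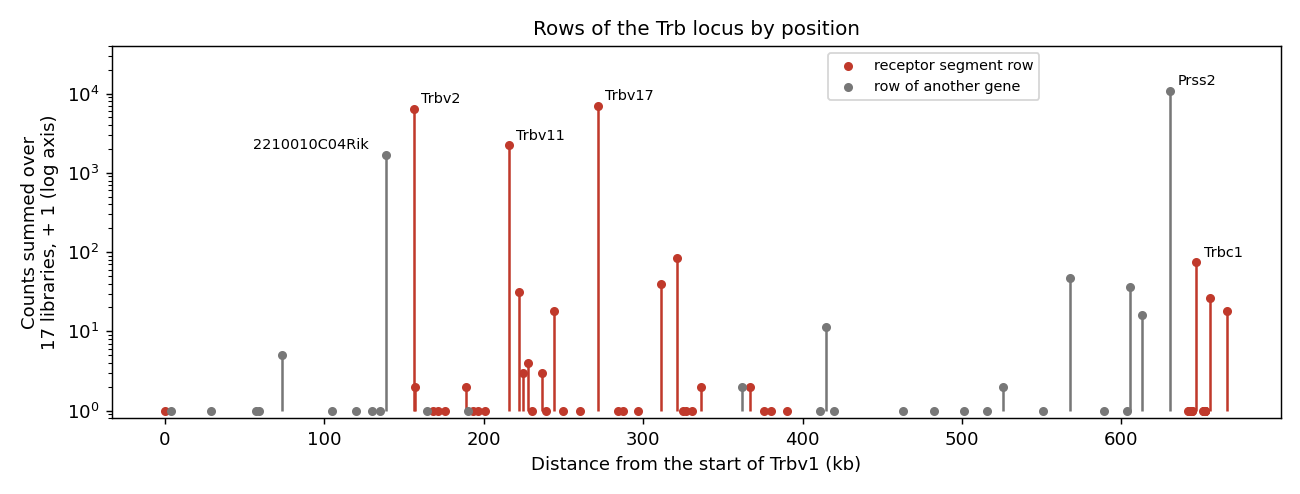
Counts of each row of the Trb locus, summed over the 17 libraries plus 1 on a log axis, against the distance of its start from the start of Trbv1; red rows are receptor segments and grey rows other genes. The Trbv2, Trbv11 and Trbv17 rows stand at 2252 to 7015 counts and the Prss2 row at 10945, while Trbc1 holds 73.

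In the Tra/Trd locus the largest row was Trdc (chromosome 14, 54142851 to 54148868), with 39.9% of the counts of the 14 rows. Its level was 35.8 to 88.4 CPM in the transgenic libraries, with a median of 45.7. In knockout replicates 1 to 5 it was 54.9, 92.9, 80.9, 50 and 100 CPM, and the controls 27 to 57.7, with a median of 46.9. Knockout replicates 2, 3 and 5 and transgenic replicate 1, the libraries with mitochondrial shares of 24.81% or more, were the 4 highest. The log2 fold change for knockout against control was 0.71 ± 0.23 (SE, FDR = 0.097), which did not pass. It was called in 4 of 27 alternatives, among them without knockout replicate 1, without knockout replicate 4 and without transgenic replicate 1, and its values ran from 0.18, without knockout replicates 2, 3 and 5 (adjusted p = 0.93), to 0.82. Transgenic against knockout gave -0.54 ± 0.23 (SE, FDR = 0.143), called only without transgenic replicate 1, and it was -0.01, with an adjusted p of 0.99, without knockout replicates 2, 3 and 5.

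The exons of Trdc share 207 bases with those of Trdv5, a delta V segment on the other strand. The sources used here do not say whether counting used strand. Where the counts of these rows were not whole, they added to whole numbers, as with 185.29 for Trdc and 4.71 for Trdv5 in transgenic replicate 2. The counting thus divided some reads between them, and this split is uncertain. The Trdv5 row had 0.537 to 5.28 CPM in the transgenic and 3.12 to 4.58 in the control libraries, and in the knockout libraries 3.73, 4.53, 1.34, 5.83 and 1.3. Its log2 fold change was -0.88 ± 0.46 (SE, FDR = 0.314) for transgenic against control.

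The Trac row (chromosome 14, 54220521 to 54224206) was low and uneven. It had 1.51 to 5.8 CPM in the transgenic libraries, with a median of 2.09, and 2.92 to 6.4 in the controls, with a median of 4.06. In the knockout group the values were 4, 0.324, 7.94, 4.72 and 0.651 CPM, so that the lowest and the highest of all 17 libraries were in this group. The fold changes did not pass, with -0.59 ± 0.52 (SE, FDR = 0.616) for transgenic and -0.31 ± 0.53 (SE, FDR = 0.75) for knockout against control.

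The 4 highest alpha V rows were Trav6d-6, Trav12-1, Trav14d-3-dv8 and Trav7-5. The Trav6d-6 row (chromosome 14, 52821922 to 52822359) had 13.9 to 20.4 CPM in the transgenic and 15.3 to 21.2 in the control libraries, and in the knockout libraries 6.66, 10.7, 26.1, 18.6 and 23.1. The knockout libraries held both its lowest and its highest value. The Trav14d-3-dv8 row (chromosome 14, 53078452 to 53079045), whose segment can join to alpha or delta, had 8.17 to 14.9, 12 to 17.7 and 10.2 to 19.6 CPM in the transgenic, knockout and control libraries. The Trav7-5 row (chromosome 14, 53530786 to 53531313) had 5.12 to 11.3, 6.66 to 14.9 and 8.6 to 14.2. All 3 rows overlapped between groups and none passed a test, the smallest adjusted p being 0.195 for Trav7-5 in transgenic against control.

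The Trav12-1 row had 6.49 to 14.8 CPM in the transgenic libraries, with a median of 9.53, and 14.5 to 26.6 in the controls, with a median of 18. The groups overlapped by the single pair of transgenic replicate 1 at 14.8 and control replicate 6 at 14.5. Knockout replicates 1 to 5 had 17.1, 9.07, 14.7, 17.5 and 36.2 CPM. The log2 fold change for transgenic against control was -0.85 ± 0.27 (SE, FDR = 0.061), which missed the threshold, and it was called in 8 of 27 alternatives, among them without transgenic replicate 1, without knockout replicate 2 and without knockout replicate 5. Transgenic against knockout gave -0.86 ± 0.28 (SE, FDR = 0.056), called in 5 of 27, without knockout replicate 2 or transgenic replicate 1 among them.

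The Trav7-3 row lay the other way. It had 4.66 to 9.45 CPM in the transgenic libraries, with a median of 5.94, and 1.72 to 5.21 in the controls, with a median of 3.17. The knockout libraries had 4, 3.56, 4.54, 4.16 and 8.14 CPM. The log2 fold change for transgenic against control was 1.0 ± 0.32 (SE, FDR = 0.061), called in 7 of 27 alternatives, among them DESeq2, limma with voom, without control replicate 6 and without knockout replicate 5. Of the 18 rows, Trav7-3 and Trdc were the only ones with a fold change above 0 in this comparison, though RLE factors also put Trav4n-3 above 0.

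The remaining alpha V rows, Trav4d-3, Trav4n-3, Trav5d-3, Trav7d-4, Trav15d-3 and the untested Trav15d-2-dv6d-2, held 58 to 290 counts each over all libraries. Their highest level in any library was the 8.1 CPM of Trav4d-3, in control replicate 6. None passed a test. The Trav15d-3 row had the largest fold change of them, -1.68 ± 0.65 (SE, FDR = 0.138) for transgenic against control, and it was at 0 in transgenic replicates 4 and 5 and in knockout replicate 2.

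The Tra/Trd counts were spread over more rows than the Trb counts. The effective number of rows was 5.52 to 8.14 in the transgenic libraries, with a median of 7.04. It was 5.46 to 8.38 in the knockout libraries, with a median of 6.5, and 7.58 to 9.12 in the controls, with a median of 8.13. The control values ran from the upper part of the other groups' ranges to above them. Of the counts of the 14 Tra/Trd rows, V rows took 45.6 to 62.7% in the transgenic libraries. They took 44.5 to 62.3% in the knockout and 57.6 to 72.5% in the control libraries. The rest fell on C rows, of which Trdc was the larger.

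In the Trg locus, whose chain belongs to gamma delta T cells, the Trgv7 row was lower in the transgenic libraries than in both other groups. It had 2.06, 1.54, 0.904, 0.583, 0 and 3.54 CPM in transgenic replicates 1 to 6, which are 0 to 12 counts. Knockout replicates 1 to 5 had 8.79, 5.18, 5.1, 13.6 and 1.63 CPM, and the control libraries 4.13, 6.15, 7.53, 4.01, 6.14 and 3.18. Transgenic replicate 6 lay above the lowest control and transgenic replicates 1 and 6 above knockout replicate 5, so the groups overlapped by these libraries. The level was below the control mean of 5.19 CPM in 6 of 6 transgenic libraries. It was also below that mean in control replicates 1, 4 and 6 and in knockout replicates 2, 3 and 5. The log2 fold change was -2.24 ± 0.55 (SE, FDR = 0.01) for transgenic against knockout and -1.83 ± 0.54 (SE, FDR = 0.04) for transgenic against control. The first was called in 27 of 27 alternatives, with values of -2.93 to -1.84. The second was called in 16 of 27, with adjusted p of 0.0087 to 0.096. It was lost with limma's voom, with the replicate number as a block, and when any 1 of control replicates 1 to 5 or transgenic replicates 2 to 5 was left out. Knockout against control gave 0.41 ± 0.48 (SE, FDR = 0.631).

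The Trgc4 row (chromosome 13, 19344558 to 19352756), a gamma constant region, had 1.85 to 6.53 CPM in the transgenic libraries, with a median of 3.11, and 4.03 to 8.38 in the controls, with a median of 5.22. The knockout libraries had 6.39, 10.4, 3.97, 2.22 and 8.14 CPM. The groups overlapped and no test passed, with -0.58 ± 0.37 (SE, FDR = 0.448) for transgenic against control and -0.75 ± 0.39 (SE, FDR = 0.232) for transgenic against knockout. The other gamma constant rows were nearly empty, with 3 counts for Trgc1, 0 for Trgc2 and 13.18 for Trgc3 in all libraries together.

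Markers of gamma delta T cells did not move with Trgv7 in a way that could be tested. Of the 7 listed, 6 were in the table, and the rows of the defining markers Sox13 and Blk were at 0 in every library. Only 1 row of the list was tested, and it was not called. The summed level of the list was 65.7 to 76.3 CPM in the transgenic, 53.4 to 80.2 in the knockout and 65.1 to 85.2 in the control libraries.

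Summed by locus, Trb had means of 239.0 ± 27.5 CPM in the transgenic (SD, n = 6), 317.5 ± 64.3 in the knockout (SD, n = 5) and 261.7 ± 31.5 in the control libraries (SD, n = 6). Tra/Trd had 122.4 ± 23.5, 167.2 ± 33.8 and 138.1 ± 18.4, and Trg 5.111 ± 2.75, 13.08 ± 3.35 and 10.65 ± 2.48. These sums carry no test. The groups overlapped except for Trg in transgenic against knockout, where the highest transgenic library had 8.595 CPM and the lowest knockout library 9.075, at a log2 ratio of -1.36.

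The knockout means of Trb and Tra/Trd rested on 3 libraries. The log2 ratio of knockout to control was 0.28 for Trb and 0.28 for Tra/Trd. Without knockout replicates 2, 3 and 5 it was -0.06 and -0.01, and without the TMM factor 0.13 and 0.13. The ratio of transgenic to knockout went from -0.41 to -0.07 for Trb and from -0.45 to -0.16 for Tra/Trd without those 3 libraries, while that of Trg was -1.36 with and -1.6 without them.

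**Figure D5:**
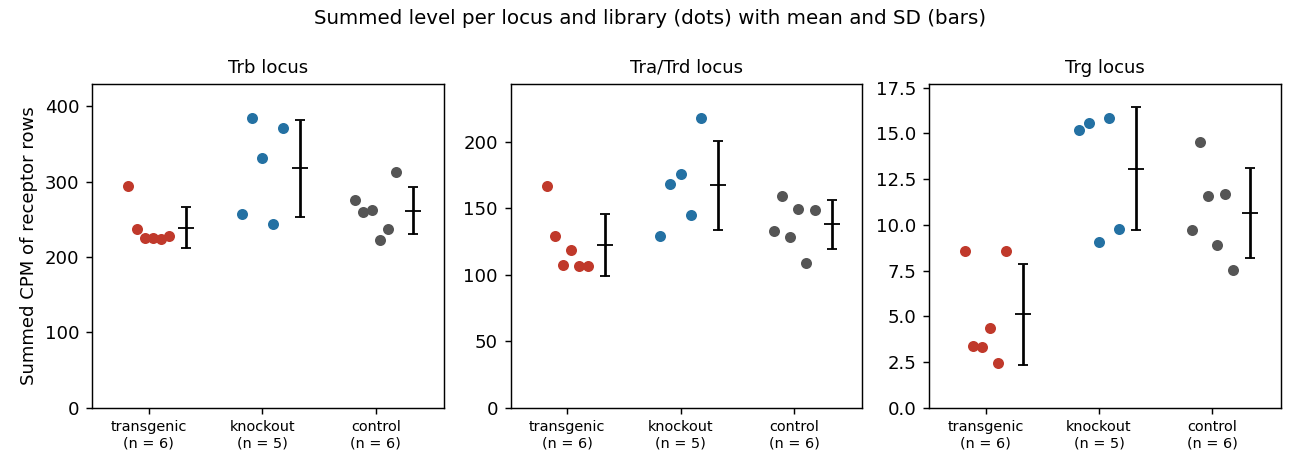
Summed level in CPM of the rows of each locus in each library (points, from replicate 1 on the left) with the mean and SD of each group; axes start at 0 and differ between panels. For Trb the knockout replicates 2, 3 and 5 lie at 331.3 to 384, above the other libraries, and for Trg all transgenic libraries lie below all knockout libraries.

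The receptor acts through the CD3 chains and a set of kinases and adaptors. Of 24 rows of the receptor complex and proximal signalling, 19 were tested. In transgenic against control 0 were higher and 2 lower, among them Prkcq, protein kinase C theta, at -0.47 ± 0.12 (SE, FDR = 0.015). In transgenic against knockout 0 were higher and 1, Prkcq, was lower at -0.58 ± 0.12 (SE, FDR = 0.003), and in knockout against control 0 were called, the smallest adjusted p being 0.096, of Cd3d. The list's medians were -0.02, -0.1 and -0.1 for transgenic against control, knockout against control and transgenic against knockout. Of all rows tested, 7.4, 1.89 and 10.7% were called in these comparisons, the shares to set beside this list and those below. The CD3 rows were very unequal: Cd3d had group medians of 709, 872 and 634 CPM in the transgenic, knockout and control libraries, Cd3g 16, 26.9 and 17.6, and Cd3e held 34 counts in all.

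Of 11 rows of receptor assembly and recombination, 5 were tested. Dclre1c, which encodes the nuclease Artemis that opens the hairpins of V(D)J recombination, was higher in transgenic against control at 0.37 ± 0.11 (SE, FDR = 0.045) and against knockout at 0.5 ± 0.12 (SE, FDR = 0.007). No other row of the list was called. Of 13 rows that answer receptor engagement, 4 were at 0 in every library, among them Nr4a1 and Cd69, and 4 were tested. Cd83, an activation molecule, was higher in transgenic against control at 1.25 ± 0.16 (SE, FDR = 1.3e-05) and against knockout at 0.94 ± 0.17 (SE, FDR = 0.0006). Irf4, a transcription factor induced by receptor signals, was higher in transgenic against knockout at 0.66 ± 0.17 (SE, FDR = 0.015). Against control its 0.48 ± 0.16 (SE, FDR = 0.078) did not pass, and the difference between these was not tested. In knockout against control 0 of the tested rows of both lists were called.

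Of the Treg markers 7 of 8 were tested, and the Foxp3 row had group medians of 317, 320 and 341 CPM with no call. In transgenic against control 3 were higher (Izumo1r, Nt5e and Ikzf2) and 1 lower (Nrp1), against 7.4% of all rows called. In knockout against control 1 was higher (Ikzf2) and 1 lower (Izumo1r), against 1.89%. In transgenic against knockout 3 were higher (Izumo1r, Nt5e and Ctla4) and 1 lower (Nrp1), against 10.7%. The list was chosen with earlier results of these data known. Among markers of other cells, no row of the CD8 T cell (2 of 4 tested), NK cell (1 of 6), B cell (2 of 6), myeloid (2 of 6) or erythroid (0 of 4) lists was called in any comparison. The Cd8b1 row held 0.54 counts in all, the Cd79b and Ebf1 rows were at 0, and 3 of the 4 erythroid rows were at 0. The B cell list summed to 177 to 268 CPM in the transgenic, 170 to 257 in the knockout and 213 to 299 in the control libraries. The NK cell list summed to 1.51 to 6.43, 5.29 to 12.5 and 2.92 to 8.66 CPM, the CD8 list to 3.44 to 30, 2.61 to 35.2 and 14.3 to 18.7, and the myeloid list to 51.6 to 65.1, 45.8 to 64.5 and 48.0 to 60.7. Their part in the results on receptor rows was not tested.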

How the data were processed

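Foxp3-GFP+ Treg libraries were read at 67 bp with a 9 bp molecular identifier, per the labels' protocols. The authors deposited RSEM expected counts per gene for 17 libraries. Per the submitters' processing notes, Bowtie2 and GRCm38 were used. The sources used here do not say whether identifiers removed duplicates. Of 47643 rows, 47224 matched a symbol in GENCODE M21, and 5.87% of values were not whole. Counts were rounded.

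Segment rows were taken by symbol. GENCODE M21 names Trg rows otherwise, and 12 receptor rows were matched through RefSeq synonyms, Trgv7 and Trgc4 among them. The members, lists and tests were chosen with earlier results of these data known. CPM is the library-scaled count, on the library total times its TMM factor. Rows were tested by the quasi-likelihood F test of edgeR 4.0.16 (R 4.3.3) with TMM, filterByExpr and all 17 libraries in 1 fit, adjusted by Benjamini-Hochberg over 9986 rows, with a threshold of 0.05 and a common coefficient of variation of 0.241. It was tested on simulated data. SE was taken from the fold change and its F. The labels do not say how animals were assigned, and a p-value then measures only how libraries of a group vary, which may be technical.

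Named were up to 4 rows per locus and class by mean CPM, called rows, all constant rows, 2 rows each side of the limit, rows with a library apart at a mean of 5 CPM or more, and up to 4 called rows per list. Some rows that this rule names are left out of the text. Rows described beyond these were chosen after their values were seen. Alternatives were RLE and upper-quartile factors, 2 other filters, limma-voom (3.58.1), DESeq2 (1.42.0), unrounded counts, fitting 2 groups alone, a block for the replicate number, leaving out each library and, chosen after seeing the data, leaving out knockout replicates 2, 3 and 5 and using GENCODE symbols alone.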

Additional observations from a re-analysis of the deposited data

Results flagged for a closer look

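In 12 of 78 groups of values examined, 1 library stood apart by Dixon's 95% value, and chance gives about 1 in 20. Transgenic replicate 1 was the highest of its group for the Trbv17 row at 133 CPM (others 105 to 114), the Trbv11 row at 52.6 (others 23.8 to 31.1), the Trb sum at 294 (others 224 to 237) and the Tra/Trd sum at 167 (others 106 to 129). Its mitochondrial share of 24.81% was also the highest of its group. Among the other transgenic libraries, replicate 4 had 20.4 CPM for Trav6d-6 (others 13.9 to 16) and replicate 6 had 5.31 for Trbv22 (others 0 to 1.81).

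Among the controls, replicate 4 was lowest for Trbv17 at 100 CPM (others 117 to 124). Control replicate 2 was highest for Trav12-1 at 26.6 (others 14.5 to 18.9) and for Trgc4 at 8.38 (others 4.03 to 5.58). Control replicate 5 had 2.63 CPM for Trbv22 (others 0.269 to 1.15). Knockout replicate 5 was highest for Trav7-3 at 8.14 (others 3.56 to 4.54) and for Trbc1 at 4.56 (others 0 to 1.11).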

How the results depend on the processing

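Depth limits the low rows: Trgv7 rests on 0 to 12 counts per transgenic library. For transgenic against control, where 1 row was called, the count was 3 with DESeq2, 2 with no filter, 3 in a fit of the 2 groups, 2 with upper-quartile factors, 3 without knockout replicates 2, 3 and 5, 0 with GENCODE symbols alone, and 0 to 3 when 1 library was left out. For knockout against control, with 0 called, it was 1 with no filter and 0 to 2 with 1 library left out. For transgenic against knockout, with 2 called, it was 4 with no filter, 1 without knockout replicates 2, 3 and 5, 1 with GENCODE symbols alone, and 1 to 5 with 1 library left out. The cause of these moves was not tested, except that GENCODE symbols alone leave the Trg rows out. DESeq2 and upper-quartile factors called 3 in transgenic against knockout. Upper-quartile factors moved the calls over all rows from 522 higher and 217 lower to 440 and 302 in transgenic against control, and from 633 and 432 to 579 and 610 in transgenic against knockout.

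Replicate numbers gave no sign of pairing: 1 of 16 same-number pairs correlated over 0.1, with a median r of 0. Among other-number pairs it was 16 of 80, with a median of 0.0055. Same-number values ran from -0.517 to 0.364, and this spread cannot show that no pairing exists. With the replicate number as a block, the counts were 1, 0 and 2, with Trav7-3 in place of Trgv7 in transgenic against control.

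With 1 library left out, the log2 ratios of summed levels were, for transgenic against control, -0.2 to -0.07 (Trb), -0.28 to -0.13 (Tra/Trd) and -1.27 to -0.92 (Trg). For knockout against control they were 0.2 to 0.36, 0.16 to 0.36 and 0.21 to 0.41, and for transgenic against knockout -0.49 to -0.33, -0.56 to -0.34 and -1.57 to -1.21. Without knockout replicates 2, 3 and 5 they were -0.06 (Trb) and -0.01 (Tra/Trd) against control, and -0.07 and -0.16 for transgenic against knockout. Over all segment rows above 0, the effective number of rows was 2.89, 3.12 and 2.99 for Trb in the transgenic, knockout and control groups, and 9.14 and 10.2 for Tra/Trd in the transgenic and control groups. The knockout median for Tra/Trd on this basis was 7.65. Knockout replicates 1 and 4 had 9.43 and 10.7, and knockout replicates 2, 3 and 5 had 6.66, 7.65 and 6.76. Over only the Tra/Trd rows described above, the knockout median was 6.5, and it was 7.9 without knockout replicates 2, 3 and 5.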

Other observations

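The 5 rows of the Trb span with at least 1000 counts were moved together along GRCm38, from 40 kb upstream to 40 kb downstream in steps of 0.2 kb, 401 positions in all, and the segments that at least 67 of their moved exon bases lay on were noted. This look was chosen after the values had been seen, used all libraries together and carries no test. Unmoved, 3 of the 5 rows lay on a segment, their own. At 3 downstream moves, 12, 14.6 and 15.2 kb, 4 of the 5 did, and at upstream moves at most 2. No other segment lies within 40 kb upstream of the 2210010C04Rik, Trbv2 or Prss2 rows. The upstream count was thus limited by the annotation, and the directions cannot be compared. At 12 kb the Trbv2 row lay on Trbv4, the Trbv17 row on Trbv18, the Trbv11 row on Trbv12-2 and the 2210010C04Rik row on Trbv2, while the Prss2 row lay on no segment. At 15.2 kb the Prss2 row lay on Trbc1, the Trbv2 row on Trbv5, the Trbv17 row on Trbv19 and the 2210010C04Rik row on Trbv2 and Trbv3. At 14.6 kb the Trbv11 row lay on Trbv13-2 and the Prss2 row again on Trbc1. These are positions and not identities.

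The Prss2 row had 144 to 230 CPM in the transgenic, 151 to 371 in the knockout and 130 to 181 in the control libraries. It was higher in knockout against control at 0.73 ± 0.18 (SE, adjusted p = 0.041 by edgeR) and lower in transgenic against knockout at -0.64 ± 0.18 (SE, adjusted p = 0.026 by edgeR). The 2210010C04Rik row was lower in transgenic against knockout at -0.51 ± 0.13 (SE, adjusted p = 0.016 by edgeR).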
